A study of Rattus norvegicus with 16 samples.

Results

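Claudins, zonula occludens proteins, connexins, cadherins, desmogleins, desmocollins and plakophilins are the proteins that build the tight, gap, adherens and desmosomal contacts between cells. All genes of these families that were measured in the skin arrays are described here, chosen by symbol (Cldn, Tjp, Gja, Gjb, Gjc, Cdh, Dsg, Dsc or Pkp followed by a digit), and they came to 52 of the 14217 genes on the arrays. They divide into 18 tight junction genes (16 claudins and 2 Tjp genes), 10 gap junction genes (the connexins), 16 cadherins and 8 desmosomal genes (2 desmogleins, 2 desmocollins and 4 plakophilins). The GRCr8 RefSeq annotation lists 30 protein-coding Cldn, 23 Cdh, 6 Gjb, 4 Dsg and 3 Dsc symbols, so the arrays covered part of most families. Gjc3, Cdh5, Dsg3, Dsg4 and Dsc3 were not analysed here.

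The study asked how gene expression in hairy skin changes after the skin loses its cutaneous nerves. Hairy back skin of the T9/10 dermatome was taken from adult female Sprague-Dawley rats, 1 array per rat, in 3 groups: 6 naive rats with no surgery and 2 sets of 5 rats whose cutaneous nerves to that skin had been ligated and cut, sampled after 7 or 14 days. The T11 nerves next to it were left intact in the operated rats, and every sample also held the cutaneous trunci muscle beneath the skin, which kept its own nerve supply. No group had surgery without nerve section, so the effects of surgery and of denervation cannot be told apart. The sources differ on body weight (a heavier range in the series description than in the methods), and the weights were not used.

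Tight junctions seal the space between cells, and claudins form their strands while the Tjp (zonula occludens) proteins tie the strands to actin. Connexins assemble into gap junction channels that pass ions and small molecules from cell to cell, classical cadherins hold adherens junctions together, and desmosomal cadherins linked by plakophilins anchor the keratin filaments that give epidermis its strength. In skin these families differ between epidermal layers and between epidermis and the growing hair follicle, and some members belong to vessels, nerve sheath or muscle.

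The promoters of 3 connexin genes are shown because these genes had the widest range over the arrays of all gap junction genes. Each window is the 250 bases before the annotated start in RefSeq (GRCr8), written 5′ to 3′ on the gene's strand, and 38 of the 52 genes had such a window. Capitals mark matches on either strand to 5 short motifs: the TATA-like TTAAAA, the GC box GGGCGG, the E-box CAGGTG that Snail-family repressors bind, the AP-1 letters TGANTCA and the LEF/TCF letters CTTTGAT.
Gjb2, chr15:35381954-35382203, minus strand: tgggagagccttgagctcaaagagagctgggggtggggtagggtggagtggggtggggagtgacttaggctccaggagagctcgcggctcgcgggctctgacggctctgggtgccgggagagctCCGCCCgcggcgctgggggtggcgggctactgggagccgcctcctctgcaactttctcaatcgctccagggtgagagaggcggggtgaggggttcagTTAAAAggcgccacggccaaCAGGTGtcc
Gjb6, first window, chr15:35410139-35410388, minus strand: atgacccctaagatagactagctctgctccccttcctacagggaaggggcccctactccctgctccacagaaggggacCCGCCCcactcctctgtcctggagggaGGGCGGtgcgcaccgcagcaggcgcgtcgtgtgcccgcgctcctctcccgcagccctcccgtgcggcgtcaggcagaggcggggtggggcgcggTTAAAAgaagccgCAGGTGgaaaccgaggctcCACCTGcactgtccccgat
Gjb6, second window, chr15:35408963-35409212, minus strand: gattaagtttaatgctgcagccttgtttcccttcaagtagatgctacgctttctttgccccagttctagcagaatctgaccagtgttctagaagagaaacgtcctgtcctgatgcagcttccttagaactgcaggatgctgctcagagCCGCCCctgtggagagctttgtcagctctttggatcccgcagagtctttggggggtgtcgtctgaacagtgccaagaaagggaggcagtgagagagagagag
Gja1, chr20:36302314-36302563, plus strand: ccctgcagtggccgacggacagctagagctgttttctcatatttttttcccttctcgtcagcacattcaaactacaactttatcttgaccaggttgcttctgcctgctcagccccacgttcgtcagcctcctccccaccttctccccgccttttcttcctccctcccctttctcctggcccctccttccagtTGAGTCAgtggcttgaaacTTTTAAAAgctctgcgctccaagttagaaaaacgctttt
Gjb2 and the first window of Gjb6 each held the TATA-like letters, the GC box and the Snail-family E-box. In Gjb2 the E-box began 9 bases before the start, and in the first Gjb6 window 2 E-boxes began 38 and 19 bases before it, the second of them on the opposite strand. Gja1 held an AP-1 match 58 bases before the start and a TATA-like match that ran over both strands. Over all 33469 windows of this length, 19% held TTAAAA, 30.5% GGGCGG, 15.9% CAGGTG, 6.34% TGANTCA and 3.15% CTTTGAT, against 10, 22, 10, 2 and 1 of the 39 windows of the junction genes. Gjb2 and Gjb6 are neighbours on chromosome 15, with no other protein-coding gene listed between them. A match is a run of letters and not a measured binding site.

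Naive replicates 1 and 2 stood apart from the other naive arrays, and this touches several of the results below. In both of them 6 of the 52 junction genes (Gjb2, Gjb6, Gja1, Dsc2, Dsg2 and Cldn4) were over 1 log2 unit above all of naive replicates 3 to 6, against 1.78% of all genes. No junction gene was lower by that margin, against 1.32% of all genes. The mean of 14 hair follicle markers was 12.12 and 12.42 in these arrays and 6.30 to 6.46 in naive replicates 3 to 6, while it lay between 9.31 and 11.99 at 7 days and between 12.21 and 12.31 at 14 days. Naive replicates 4 and 5 were lowest in the macrophage list, with means of 6.80 and 6.39 against 7.70 to 8.75 in the other naive arrays. Counts against naive are therefore also given without replicates 1 and 2 and without replicates 4 and 5. Calls that changed without either pair are named for the genes described singly. Both pairs were picked from these same values, so an adjusted p without a pair is a description and no independent test. For the 6 genes named above, leaving out replicates 1 and 2 removes their highest naive values by choice. No junction gene gained a call without replicates 4 and 5. Keratinocyte markers had means of 10.51 to 11.79 and skeletal muscle markers 10.76 to 12.46 over all 16 arrays, so both tissues named by the labels were present in each sample. In whole skin, fewer cells of a type and less RNA per cell cannot be told apart.

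**Figure D1:**
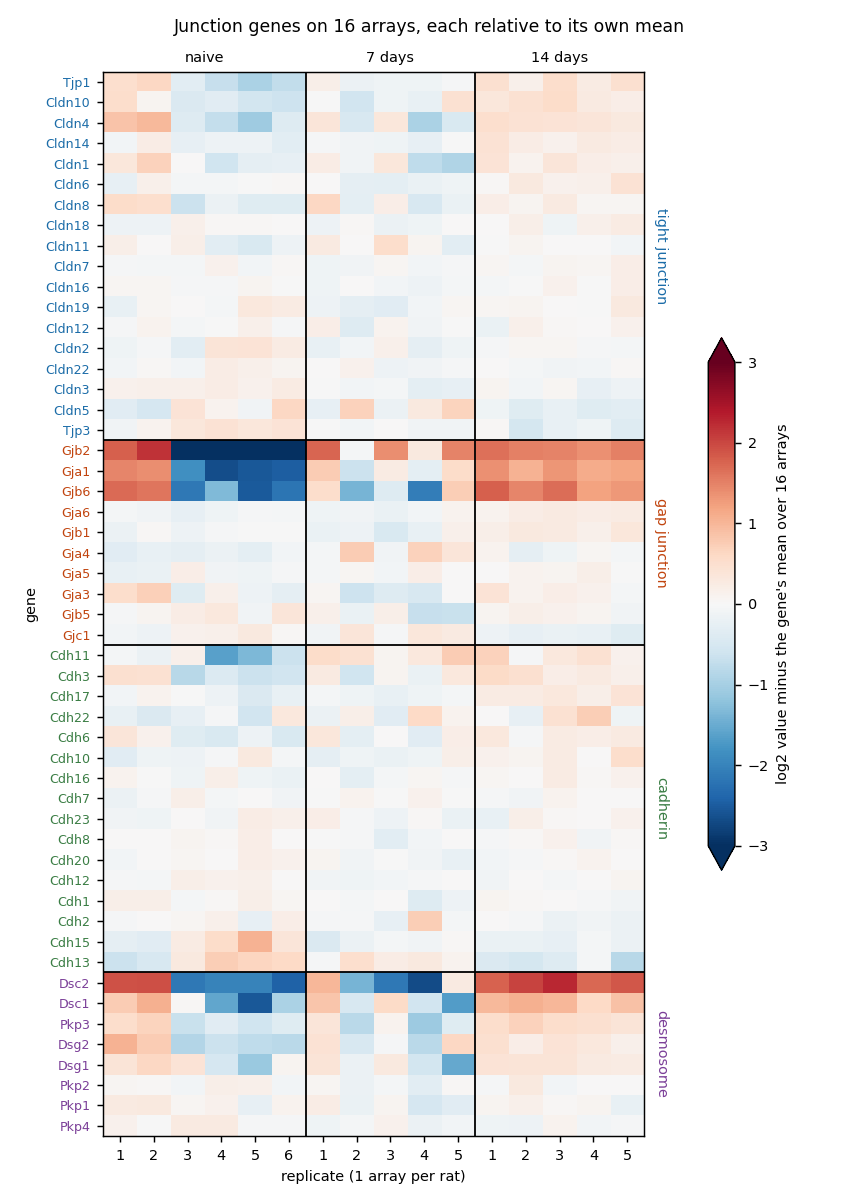
Heat map of the 52 junction genes (rows, by type and within a type by their change at 14 days) on the 16 arrays (columns, by group). Colour is the log2 value minus the gene's own mean over the arrays, with the scale ending at 3 on either side. Gjb2, Gja1, Gjb6 and Dsc2 are low in naive replicates 3 to 6 and high in naive replicates 1 and 2 and in all 14-day arrays.

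At 7 days 3 of the 52 junction genes passed an adjusted p of 0.05 in limma, adjusted over all 14217 genes. Cdh11 and Gja4 were higher than in naive skin and Cldn3 was lower, which is 2 genes up where 7.85% of all genes were called higher and 1 gene down where 2.66% were called lower. The value of Cdh11 at 7 days sets different probesets of the gene against each other, as described with the cadherins. By 14 days 10 junction genes were higher, against 8.95% of all genes, and 3 were lower, against 14.6%. The genes higher at 14 days were Gjb2, Gjb6, Gja1, Gja6, Gjb1, Dsc2, Cdh11, Cdh17, Cldn10 and Cldn14, and those lower were Tjp3, Gjc1 and Cldn3. For Cdh11 the probeset that gave this 14-day value did not pass when tested alone (adjusted p = 0.0667). Between the 2 times 7 genes were higher at 14 than at 7 days (8.86% of all genes) and Gjc1 was lower (10.1%). The comparisons of 7 and 14 days against naive share the naive arrays and are given side by side for each gene.

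Counts against naive changed with the naive arrays in the model. Without naive replicates 1 and 2, 8 junction genes were higher and 5 lower at 7 days, where 19% and 16.4% of all genes were called, and 19 were higher and 6 lower at 14 days, where 21.1% and 21.8% were called. Without naive replicates 4 and 5, limma called none at 7 days (2.43% of all genes higher and 0.324% lower), with 2 higher and 5 lower at an unadjusted p under 0.05, and 3 were higher and 1 lower at 14 days (1.77% and 4.98%). Every 14-day array lay above every naive array for Cdh17, Gja6 and Gjb1, against 3.69% of all genes, and below every naive array for Cldn3, against 6.66%. At 7 days no junction gene lay above all naive arrays (3.31% of all genes) and only Cldn3 lay below them (1.35%).

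**Figure D2:**
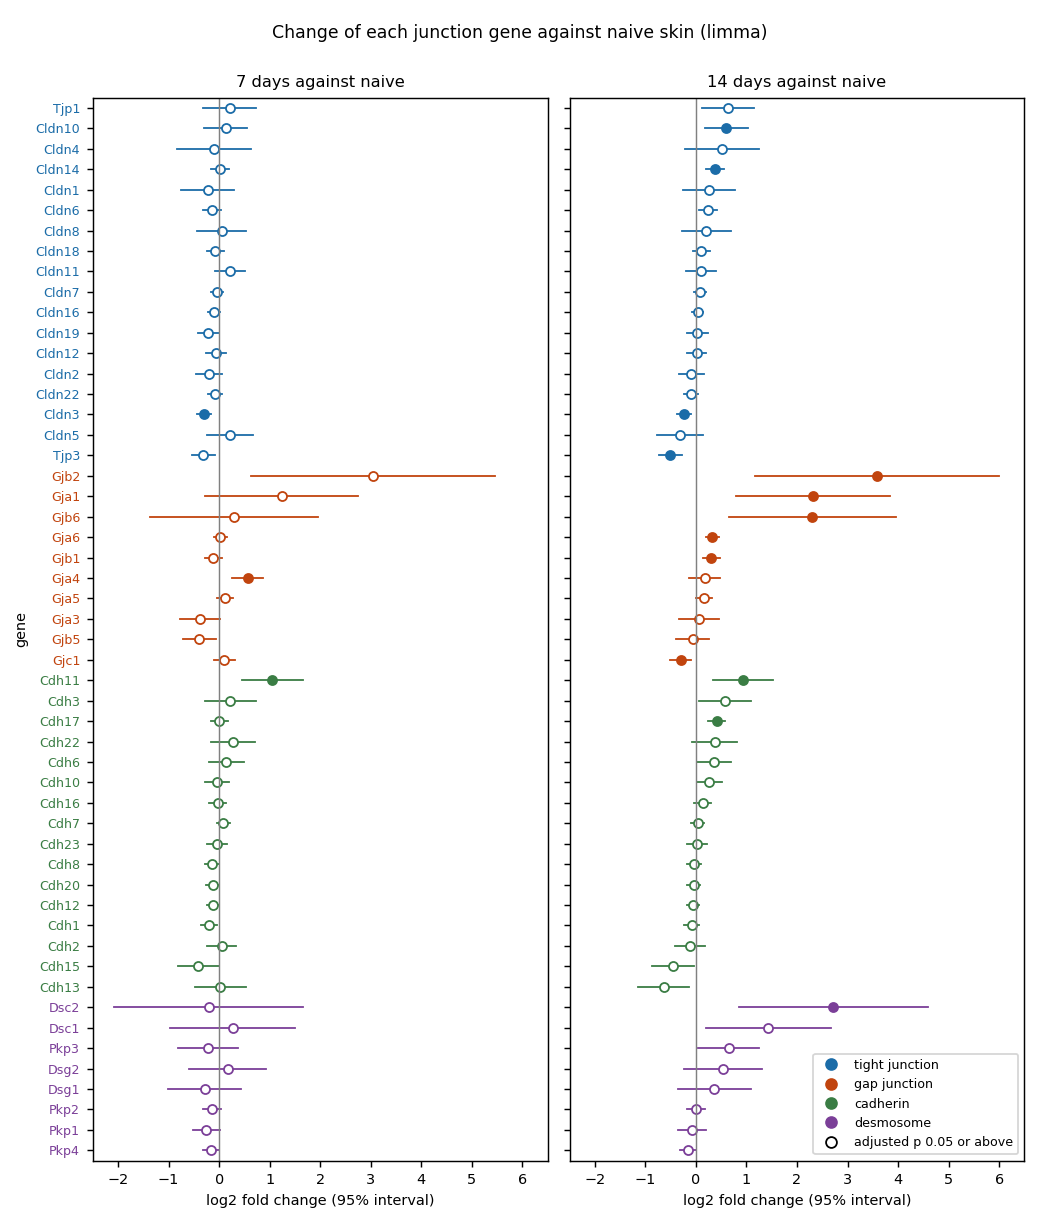
Change of each junction gene against naive skin at 7 days (left) and 14 days (right), as log2 fold change from limma with its 95% interval; filled points have an adjusted p under 0.05. The intervals of Gjb2, Gjb6, Gja1 and Dsc2 are the widest, and the changes of Gja6, Gjb1, Cdh17, Cldn14, Cldn3 and Tjp3 are small with narrow intervals.

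The largest difference from naive skin among all 52 junction genes at either time was that of Gjb2, which encodes Cx26, a connexin of hair follicle and activated epidermis and a cause of inherited deafness with skin disease when mutated. Its log2 value was 12.18 and 12.54 in naive replicates 1 and 2, and 6.80, 6.03, 5.47 and 6.82 in replicates 3 to 6. At 7 days it was 12.13, 10.33, 11.77, 10.66 and 11.87, and at 14 days 12.04, 11.89, 11.86, 11.76 and 11.90. All 10 denervated samples were thus above the 4 low naive arrays and below the highest naive array. The mean difference from naive was 3.05 ± 1.13 (SE) at 7 days with an adjusted p of 0.0931 in limma, and 3.58 ± 1.13 at 14 days with an adjusted p of 0.0349. Without naive replicates 1 and 2 these became 5.07 (adjusted p = 4.3e-06) and 5.61 (adjusted p = 7.26e-07), and without naive replicates 4 and 5 they became 1.77 (adjusted p = 0.418) and 2.31 (adjusted p = 0.178).

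Gjb6 encodes Cx30, a partner of Cx26 in mixed channels. Its value was 8.87 and 8.77 in naive replicates 1 and 2 and 5.03, 5.85, 4.66 and 4.98 in the rest. The 7-day arrays gave 7.70, 5.78, 6.79, 5.10 and 7.90 and the 14-day arrays 8.97, 8.64, 8.85, 8.37 and 8.48. The 7-day values therefore spread over much of the naive range, and the difference from naive was 0.29 ± 0.78 (adjusted p = 0.818). At 14 days it was 2.30 ± 0.78 (adjusted p = 0.0439). Without naive replicates 1 and 2 the differences were 1.52 (adjusted p = 0.0238) and 3.53 (adjusted p = 5.41e-05), and without naive replicates 4 and 5 they were -0.26 (adjusted p = 0.899) and 1.75 (adjusted p = 0.191).

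Gja1 encodes Cx43, the most widespread connexin of skin. It measured 12.23 and 12.17 in naive replicates 1 and 2 and 8.93, 8.11, 8.23 and 8.31 in the others. It measured 11.54, 10.12, 11.02, 10.48 and 11.33 at 7 days and 12.14, 11.81, 12.10, 11.89 and 11.95 at 14 days. The difference was 1.23 ± 0.72 at 7 days (adjusted p = 0.259) and 2.32 ± 0.72 at 14 days (adjusted p = 0.0323). Without naive replicates 1 and 2 it was 2.50 (adjusted p = 5.49e-05) and 3.58 (adjusted p = 1.77e-06), and without naive replicates 4 and 5 it was 0.49 (adjusted p = 0.761) and 1.57 (adjusted p = 0.168). Its 3 probesets differed in size: 1 changed by 2.32 at 14 days, 1 by 1.05, and the third, which stayed between 4.00 and 4.26 on all arrays, by 0.08.

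The calls of Gjb2, Gjb6 and Gja1 at 14 days depended on single arrays. Leaving out any 1 of naive replicates 3 to 6, or any 1 of the 14-day arrays, took the adjusted p of each of the 3 genes above 0.05, and over all alternatives it ranged from 7.26e-07 to 0.178 for Gjb2, from 5.41e-05 to 0.191 for Gjb6 and from 1.77e-06 to 0.168 for Gja1. For Gjb6 the call was also lost without 7-day replicate 3. The 14-day difference stayed upward in each alternative. The hair follicle list had the same pair of naive arrays apart, 13 of its 14 measured genes were higher at 14 days and none at 7 days (5 at an unadjusted p under 0.05), and its part in these results was not tested.

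**Figure D3:**
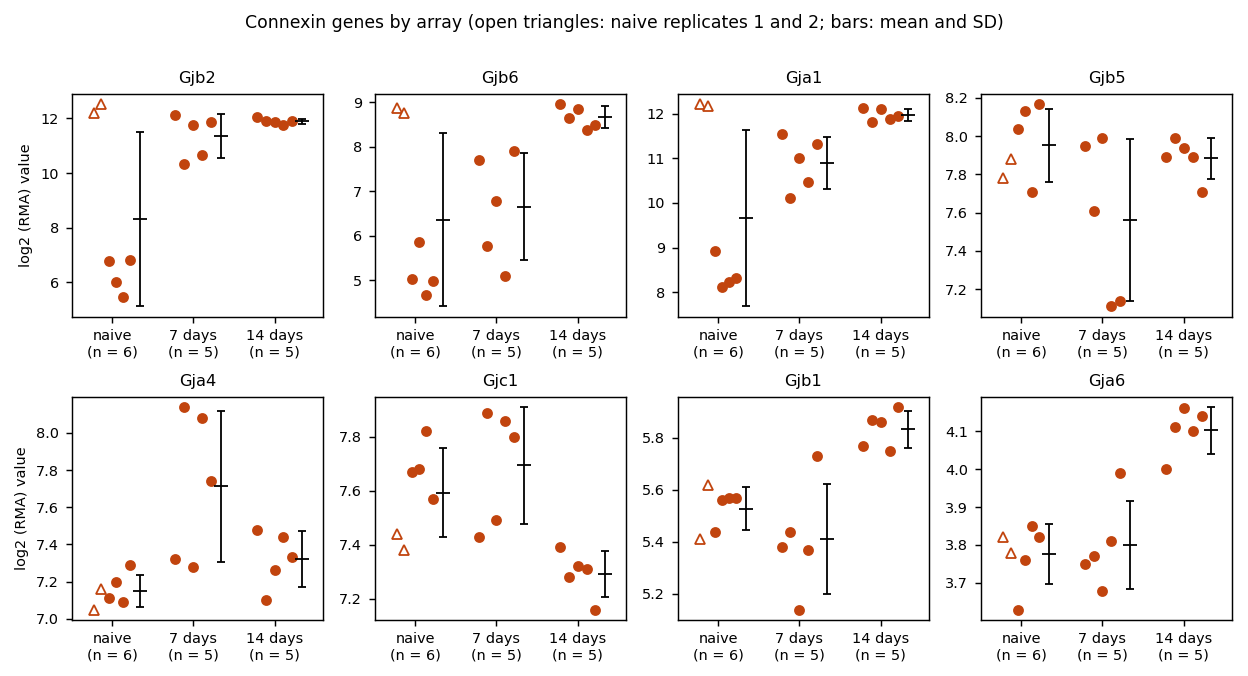
Log2 (RMA) values of 8 connexin genes on each array, by group, with the mean and SD of each group; naive replicates 1 and 2 are open triangles. For Gjb2, Gjb6 and Gja1 the open triangles lie with the 14-day arrays, whereas for Gjb5, Gja4 and Gjc1 all 6 naive arrays lie within 0.5 log2 units of each other.

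Gja4, which encodes Cx37 of arterial endothelium, was the connexin called at 7 days with all arrays in the model. It ranged from 7.05 through a median of 7.13 to 7.29 over the naive arrays, and was 7.32, 8.14, 7.28, 8.08 and 7.74 at 7 days and 7.48, 7.10, 7.26, 7.44 and 7.33 at 14 days. Replicates 2, 4 and 5 of the 7-day group were high and the other two lay close to the highest naive value. The rise was 0.56 ± 0.14 (adjusted p = 0.0218), and it no longer passed without 7-day replicate 4, without naive replicates 4 and 5, or with only the groups compared in the model, with an adjusted p of up to 0.0918. At 14 days the difference was 0.17 ± 0.14 (adjusted p = 0.388). Of the endothelium list, 10 of 16 measured genes also rose at 7 days and none at 14 days (2 at an unadjusted p under 0.05), and its mean was 7.17, 7.74, 7.32, 7.71 and 7.57 on the 7-day arrays against 6.67 to 7.33 in naive skin. That list itself holds Cldn5 and Esam, which are described below. Whether the endothelial share set the Gja4 value was not tested.

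The other vascular members gave smaller values. Gja5 (Cx40, also arterial) differed by 0.11 ± 0.08 at 7 days (adjusted p = 0.325), and Cldn5, the claudin of endothelial tight junctions, by 0.22 ± 0.21 (adjusted p = 0.511). At 14 days Cldn5 gave -0.31 ± 0.21 (adjusted p = 0.279), and -0.54 without naive replicates 1 and 2 (adjusted p = 0.0412). Cldn5 was high in 7-day replicates 2 and 5 (7.41 and 7.39), intermediate in replicate 4 (7.00) and low in replicates 1 and 3 (6.47 and 6.53). Gjc1, which encodes Cx45 of vascular smooth muscle, was called lower at 14 days. It lay between 7.38 and 7.82 in naive skin, was 7.43, 7.89, 7.49, 7.86 and 7.80 at 7 days, and was 7.39, 7.28, 7.32, 7.31 and 7.16 at 14 days. It fell by 0.30 on the log2 scale against naive (SE 0.10, adjusted p = 0.0371) and by 0.40 against 7 days (SE 0.10, adjusted p = 0.0168). The first call was lost without any 1 of naive replicates 3 to 6 or of the 14-day arrays, and without naive replicates 4 and 5 together it was -0.22 (adjusted p = 0.172).

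Gjb1 and Gja6 gave the steadiest changes among the connexins, and both were small. Gjb1 encodes Cx32, a gap junction protein of myelinating Schwann cells. It ranged from 5.41 to 5.62 in naive skin, was 5.38, 5.44, 5.14, 5.37 and 5.73 at 7 days, and was 5.77, 5.87, 5.86, 5.75 and 5.92 at 14 days. It rose by 0.31 ± 0.08 at 14 days against naive (adjusted p = 0.0193) and by 0.42 ± 0.09 against 7 days (adjusted p = 0.00658). The second call held in all 27 alternatives and the first in 26 of them, the exception being without naive replicates 4 and 5 (adjusted p = 0.0589). Of the Schwann cell list, which itself holds Gjb1 and Cldn19, 3 of 12 measured genes were higher and 1 was lower at 14 days. Gja6, a connexin known from testis, lay between 3.63 and 3.85 in naive skin and between 4.00 and 4.16 at 14 days, a rise of 0.32 ± 0.06 (adjusted p = 0.00371) at a signal below the lower quartile of all genes (5.496), and this call held in all 26 alternatives that keep dim genes. Gjb5, a connexin of keratinocytes, did not pass at either time, with -0.39 ± 0.15 at 7 days (adjusted p = 0.111) and -0.07 ± 0.15 at 14 days (adjusted p = 0.779). Its lowest values, 7.11 and 7.14, were those of 7-day replicates 4 and 5.

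Desmosomal genes varied most among rats. Of the 8 genes 5 had an SD over 0.5 log2 units in naive skin and 5 at 7 days, and none at 14 days. Over all junction genes the shares were 26.9%, 19.2% and 0%, beside 11.2%, 6.15% and 0.387% of all genes. Dsc2, the most widely expressed desmocollin, was the only desmosomal gene called against naive on the median over probesets, and at 7 days limma called none (1 lower at an unadjusted p under 0.05). It was 9.64 and 9.66 in naive replicates 1 and 2 and 5.59, 5.71, 5.73 and 5.31 in replicates 3 to 6. It was 8.71, 6.34, 5.59, 5.04 and 7.99 at 7 days and 9.49, 9.76, 9.99, 9.45 and 9.59 at 14 days. The 14-day arrays thus formed a narrow group level with the 2 high naive arrays, and the 7-day arrays ran from the low to nearly the high naive values. The difference was -0.21 ± 0.88 at 7 days (adjusted p = 0.891) and 2.72 ± 0.88 at 14 days (adjusted p = 0.038), with 2.93 ± 0.92 between the times (adjusted p = 0.0388). The 14-day call was lost without any 1 of naive replicates 3 to 6 or of the 14-day arrays, and the call between the times without any 1 of 7-day replicates 2 to 4 or of the 14-day arrays (adjusted p up to 0.0971). Without naive replicates 1 and 2 the differences from naive were 1.15 at 7 days (adjusted p = 0.136) and 4.07 at 14 days (adjusted p = 8.16e-05), and without naive replicates 4 and 5 they were -0.82 (adjusted p = 0.706) and 2.11 (adjusted p = 0.177).

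Dsc1 and Dsg1, the desmosomal cadherins of the upper living epidermis, had low values on other arrays. Dsc1 was 8.80, 9.12, 8.08, 6.48, 5.49 and 7.10 in naive skin, 8.88, 7.57, 8.61, 7.47 and 6.37 at 7 days and 9.02, 9.11, 9.04, 8.63 and 8.92 at 14 days. Dsg1 was 9.93, 10.17, 9.97, 9.04, 8.43 and 9.64 in naive skin, 9.94, 9.38, 9.85, 9.0 and 8.02 at 7 days and 9.97, 9.94, 9.95, 9.81 and 9.79 at 14 days. Both were lowest in replicate 5 of the naive group and in replicate 5 of the 7-day group. Dsc1 differed by 1.43 ± 0.58 at 14 days with an adjusted p of 0.0832 and Dsg1 by 0.37 ± 0.34 with an adjusted p of 0.44. The Dsc1 difference at 14 days was 2.16 without naive replicates 1 and 2 (adjusted p = 0.00335) and 0.67 without naive replicates 4 and 5 (adjusted p = 0.367). The keratinocyte list also had its lowest means in 7-day replicates 4 and 5 (10.96 and 10.51) and its lowest naive mean in replicate 5 (11.23), and its part in these values was not tested.

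Pkp3, a plakophilin of all epidermal layers, was 10.60 and 10.75 in naive replicates 1 and 2 and 9.41 to 9.73 in the rest. It was 10.43, 9.26, 10.19, 8.99 and 9.71 at 7 days and 10.60, 10.76, 10.60, 10.55 and 10.45 at 14 days. It rose between the times by 0.87 ± 0.29 (adjusted p = 0.0487), a call that was lost without any 1 of 11 arrays (naive replicates 4 and 6, 7-day replicates 2 to 5 and every 14-day array). Against naive it differed by -0.23 ± 0.28 at 7 days and 0.65 ± 0.28 at 14 days (adjusted p of 0.607 and 0.101). The latter was 1.01 without naive replicates 1 and 2 (adjusted p = 0.00294) and 0.47 without naive replicates 4 and 5 (adjusted p = 0.332). Dsg2 was 9.39 and 9.12 in naive replicates 1 and 2 against 7.46 to 7.70 in the others, and its 14-day difference was 0.53 ± 0.36 (adjusted p = 0.286). At 7 days the Dsg2 difference was 0.17 ± 0.36 (adjusted p = 0.779). Dsg2 differed by 0.73 at 7 days (adjusted p = 0.0244) and by 1.09 at 14 days (adjusted p = 0.00155) when naive replicates 1 and 2 were left out. Without naive replicates 4 and 5 it differed by -0.08 (adjusted p = 0.935) and 0.28 (adjusted p = 0.662). Pkp1 and Pkp2 did not pass, with intervals of the 14-day difference of -0.35 to 0.20 for Pkp1 and -0.18 to 0.18 for Pkp2. Pkp4 gave -0.16 ± 0.08 at 14 days, but its 2 probesets were -0.50 (adjusted p = 0.00869 over all probesets tested singly) and 0.18 (adjusted p = 0.283).

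Tight junction genes changed little on the log2 scale. Cldn3 was the only junction gene called lower at both times. It lay between 8.92 and 9.04 on the naive arrays, was 8.79, 8.71, 8.74, 8.51 and 8.56 at 7 days, and was 8.88, 8.72, 8.85, 8.56 and 8.65 at 14 days. No denervated array reached the lowest naive value. It fell by 0.30 at 7 days (SE 0.07, adjusted p = 0.0131) and by 0.23 at 14 days (SE 0.07, adjusted p = 0.027). The 7-day call held without any single array, and the 14-day call was lost without naive replicate 4 or 6 or 14-day replicate 2, 4 or 5. Without naive replicates 4 and 5 together neither call held (adjusted p of 0.0584 at 7 days and 0.0884 at 14 days). Tjp3 (ZO-3, an epithelial scaffold protein) fell by 0.50 at 14 days (SE 0.11, adjusted p = 0.00715), a call that held in all 27 alternatives. At 7 days its difference was -0.31 ± 0.11 (adjusted p = 0.0703), and -0.44 without naive replicates 1 and 2 (adjusted p = 0.00235). It was 6.05 and 6.28 in naive replicates 1 and 2, 6.51 to 6.61 in the other naive arrays, 6.05 to 6.17 at 7 days and 6.20, 5.63, 5.94, 6.03 and 5.79 at 14 days, so that naive replicate 1 lay within the denervated range.

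**Figure D4:**
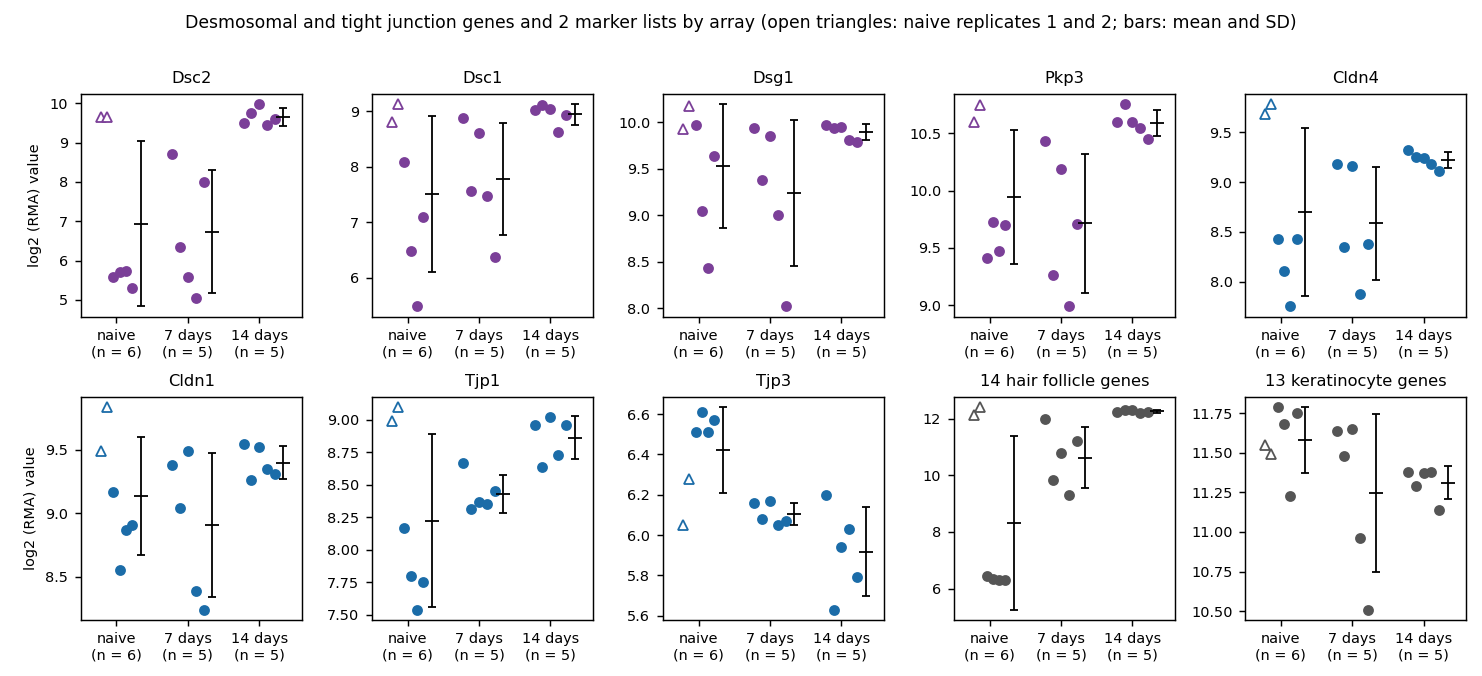
Log2 (RMA) values of 4 desmosomal genes (Dsc2, Dsc1, Dsg1, Pkp3), 4 tight junction genes (Cldn4, Cldn1, Tjp1, Tjp3) and the means of 14 hair follicle and 13 keratinocyte genes on each array, by group, with group mean and SD; naive replicates 1 and 2 are open triangles. Dsc2, Pkp3, Cldn4 and Tjp1 show the same 2 naive arrays apart as the hair follicle mean, Dsg1 and Cldn1 have low points in 7-day replicates 4 and 5 as the keratinocyte mean has, and Tjp3 has its lowest points at 14 days.

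Cldn14 and Cldn10 were the claudins that rose at 14 days. Cldn14, a claudin known from the inner ear and kidney, ranged from 5.81 to 6.34 in naive skin and was 6.57, 6.34, 6.25, 6.39 and 6.36 at 14 days, with its highest naive value again in replicate 2. Its rise of 0.38 ± 0.09 (adjusted p = 0.00956) held in all 27 alternatives, and it was also higher at 14 than at 7 days by 0.36 ± 0.09 (adjusted p = 0.0153). Cldn10, a channel-forming claudin, was 5.68 and 5.24 in naive replicates 1 and 2, 4.54 to 4.81 in the rest and 5.37 to 5.72 at 14 days. By its mean over the arrays it is a dim gene, below the lower quartile of all genes. Its rise of 0.60 ± 0.20 (adjusted p = 0.0423) was lost without any 1 of 11 arrays (naive replicates 3 to 6, 7-day replicates 1 and 3 and every 14-day array), and was 0.49 without naive replicates 4 and 5 together (adjusted p = 0.178). Cldn6, named here after its values were seen, was higher at 14 than at 7 days by 0.38 ± 0.09 (adjusted p = 0.011) with a signal below the lower quartile of all genes, and against naive its 14-day difference was 0.24 (adjusted p = 0.0511), and 0.23 without naive replicates 1 and 2 (adjusted p = 0.0393).

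Among the barrier claudins of epidermis, Cldn1 and Cldn4 did not pass with all arrays in the model. Cldn1, needed for the epidermal water barrier, was 9.38, 9.04, 9.49, 8.39 and 8.24 at 7 days, with replicates 4 and 5 below all naive arrays (8.55 to 9.84), and 9.26 to 9.55 at 14 days. Its difference was -0.23 ± 0.25 at 7 days (adjusted p = 0.55) and 0.26 ± 0.25 at 14 days (adjusted p = 0.453). One of its 3 probesets, tested alone, fell by 0.80 at 14 days (adjusted p = 0.0126), whereas the other two differed by 0.26 and 0.02. Cldn4 was 9.69 and 9.79 in naive replicates 1 and 2, 7.75 to 8.43 in replicates 3 to 6, and 9.11 to 9.32 after 14 days. Its 14-day difference was 0.52 ± 0.34 (adjusted p = 0.269). The difference was 1.04 without naive replicates 1 and 2 (adjusted p = 0.00258) and 0.14 without naive replicates 4 and 5 (adjusted p = 0.801). Tjp1 (ZO-1, the scaffold shared by tight and adherens junctions) was 8.99 and 9.10 in naive replicates 1 and 2, 7.54 to 8.17 in the rest and 8.64 to 9.02 at 14 days. It differed by 0.64 ± 0.24 at 14 days (adjusted p = 0.0679), and its 2 probesets by 0.38 and 0.89. At 7 days the mean of Tjp1 was 8.43 against 8.23 in naive skin, and it was not called with all arrays. With naive replicates 1 and 2 left out, Tjp1 differed by 0.62 at 7 days (adjusted p = 0.00174) and by 1.05 at 14 days (adjusted p = 1.67e-05). Without naive replicates 4 and 5 it differed by -0.07 (adjusted p = 0.895) and 0.36 (adjusted p = 0.311). Cldn7 stayed between 4.30 and 4.61 on every array, which is among the dim genes. Cldn19 was not called with all arrays, and gave -0.28 at 7 days without naive replicates 1 and 2 (adjusted p = 0.0438).

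Among the cadherins Cdh11, the cadherin of fibroblasts and other mesenchymal cells, was called at both times on the median over its 3 probesets. It was 6.27, 6.15, 6.48, 4.69, 4.98 and 5.69 in naive skin, 6.88, 6.79, 6.40, 6.65 and 7.09 at 7 days and 7.01, 6.29, 6.64, 6.79 and 6.46 at 14 days. The median gave a difference of 1.05 ± 0.28 at 7 days (adjusted p = 0.0292) and of 0.93 ± 0.28 at 14 days (adjusted p = 0.0307). The 2 lowest naive values were those of replicates 4 and 5, and without these arrays neither call held, with 0.62 at 7 days (adjusted p = 0.0865) and 0.49 at 14 days (adjusted p = 0.106). The 7-day call was also lost without naive replicate 6 or 7-day replicate 1, 4 or 5 singly. The 14-day call was lost without naive replicate 6 or 14-day replicate 1, 3, 4 or 5 singly. Over all alternatives the adjusted p reached 0.176 at 7 days and 0.183 at 14 days. The former came with the probeset of the highest mean, which gave -0.27. Of the fibroblast list, 6 of 12 genes rose at 7 days and 1 at 14 days, with means of 9.51 and 8.66 in naive replicates 4 and 5 against 10.35 to 10.86 in the other naive arrays, and its part in the Cdh11 values was not tested.

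The 3 probesets of Cdh11 did not move together. The first lay between 4.69 and 6.48 in naive skin, between 7.56 and 9.48 at 7 days and between 6.29 and 7.01 at 14 days, a rise of 2.56 ± 0.35 at 7 days (adjusted p = 0.00157) with no overlap, and of 0.93 ± 0.35 at 14 days (adjusted p = 0.0667). The second differed by -0.27 at 7 days and 0.23 at 14 days. The third stayed between 3.57 and 3.99. Since the median of 3 takes the middle probeset, the gene value came from the second probeset on the 7-day arrays and from the first on the naive and 14-day arrays. The 7-day difference of 1.05 therefore sets levels of different probesets against each other and is the change of neither.

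**Figure D5:**
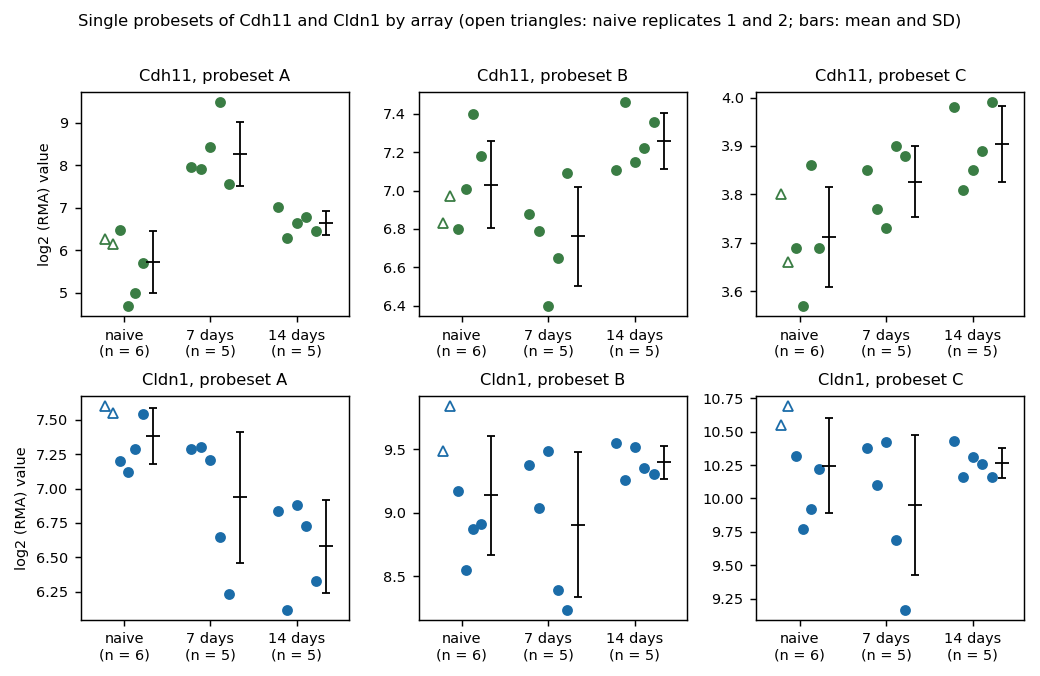
Log2 (RMA) values of the 3 probesets of Cdh11 (top) and the 3 of Cldn1 (bottom) on each array, by group, with group mean and SD; naive replicates 1 and 2 are open triangles and each panel has its own axis. Probeset A of Cdh11 is raised by 2.56 at 7 days while B differs by -0.27, and probeset A of Cldn1 falls by 0.80 at 14 days while B differs by 0.26.

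Cdh17, a cadherin known from intestine, rose at 14 days by 0.41 ± 0.08 (adjusted p = 0.00466), from 4.42 to 4.96 in naive skin to 5.09, 5.09, 5.17, 5.03 and 5.25, and was called in all 26 alternatives that keep dim genes, at a signal below the lower quartile of all genes. It was also higher at 14 than at 7 days by 0.41 ± 0.08 (adjusted p = 0.00676). Cdh1 (E-cadherin, the adherens junction protein of all keratinocytes) has a bright probeset (9.56 to 10.67 over all arrays) and a dim one (3.69 to 4.23), and the gene value is the middle of both. That value gave -0.21 at 7 days (interval -0.36 to -0.05, adjusted p = 0.0843) and -0.09 at 14 days (interval -0.24 to 0.07, adjusted p = 0.4). Tested alone, the bright probeset gave -0.34 at 7 days (adjusted p = 0.157) and -0.14 at 14 days (adjusted p = 0.501), and the dim one -0.08 and -0.03. Cdh3 (P-cadherin of basal and hair matrix keratinocytes) was 9.23 and 9.19 in naive replicates 1 and 2, 7.91 to 8.34 in the rest and 8.89 to 9.31 at 14 days. Its difference was 0.22 ± 0.24 at 7 days (adjusted p = 0.554) and 0.58 ± 0.24 at 14 days (adjusted p = 0.0877). Without naive replicates 1 and 2 it was 0.58 (adjusted p = 0.0151) and 0.94 (adjusted p = 0.000442). Without naive replicates 4 and 5 it was 0.09 (adjusted p = 0.896) and 0.44 (adjusted p = 0.293).

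Cdh13 and Cdh15 had lower 14-day means without passing the test on all arrays. Cdh13 (T-cadherin of vessels and muscle) was 8.40 and 8.58 in naive replicates 1 and 2, 9.34 to 9.80 in the others, 9.01 to 9.56 at 7 days and 8.23 to 9.0 at 14 days. The 14-day difference was -0.64 ± 0.24 (adjusted p = 0.0626). It was -1.01 without naive replicates 1 and 2 (adjusted p = 9.1e-05) and -0.39 without naive replicates 4 and 5 (adjusted p = 0.288). Cdh15 (M-cadherin of skeletal muscle and its satellite cells) was 6.27 and 6.19 in naive replicates 1 and 2 and 6.78 to 7.58 in replicates 3 to 6. It was 6.28 to 6.46 after 14 days, a difference of -0.45 ± 0.19 (adjusted p = 0.097). At 7 days the difference was -0.41 ± 0.19 (adjusted p = 0.167). Cdh15 gave -0.70 at 7 days (adjusted p = 0.0018) and -0.73 at 14 days (adjusted p = 0.000677) when naive replicates 1 and 2 were left out. Without naive replicates 4 and 5 it gave -0.15 (adjusted p = 0.614) and -0.19 (adjusted p = 0.391). Of 21 skeletal muscle markers, 14 were lower at 14 days and none at 7 days (1 at an unadjusted p under 0.05), and their mean was 11.44 and 10.83 in naive replicates 1 and 2, 12.18 to 12.46 in replicates 3 to 6 and 10.76 to 11.08 at 14 days. Cdh2, the cadherin of nerve and muscle, did not pass at either time. Cdh12, a dim gene, gave -0.13 at 7 days (adjusted p = 0.141), and -0.18 without naive replicates 1 and 2 (adjusted p = 0.0174).

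The junction types are set side by side by their medians, and no difference between types was tested. The median log2 fold change at 7 days was -0.08 for tight junction genes, 0.11 for gap junction genes, -0.01 for cadherins and -0.19 for desmosomal genes, beside -0.02 over all genes. At 14 days the medians were 0.09, 0.24, 0.03 and 0.45 in the same order, beside 0.02 over all genes. The pooled SD of a type's median value between arrays of a group was 0.06, 0.11, 0.05 and 0.38. With each array left out in turn, the 14-day median ran from 0.28 to 0.61 for desmosomal genes. For gap junction genes it ran from 0.22 to 0.26. Without naive replicates 4 and 5 together the desmosomal median at 14 days fell below the gap junction median, so the order of these types depended on the naive arrays. The desmosomal median rests on genes of which 1 of 8 passed, and 5 gap junction genes were called higher and 1 lower of 10. Of the 18 tight junction genes 2 were called higher and 2 lower, and 2 of 16 cadherins were called higher. Over all genes 8.95% were called higher and 14.6% lower. Without naive replicates 4 and 5, Gja6 was the only gap junction gene called at 14 days. All 8 desmosomal genes had higher means at 14 than at 7 days, of which Dsc2 and Pkp3 passed, with a median of 0.51 beside a median near 0 over all genes. The smallest of these rises was 0.01, for Pkp4. Means were also higher for 14 of 18 tight junction genes, 8 of 10 gap junction genes and 11 of 16 cadherins. Over all genes this held for 6997 of 14217.

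Proteins that bind or regulate these junctions were read from lists of their own. Of 17 measured tight junction partners, Esam, an endothelial adhesion molecule, rose at 7 days by 0.57 ± 0.17, and Cgn (cingulin) and Patj fell by 0.49 and 0.34. At 14 days Mpdz, a multi-PDZ scaffold, fell by 1.29 (SE 0.27, adjusted p = 0.00715) and Pals1, a polarity scaffold, fell by 0.75 (SE 0.17, adjusted p = 0.00927). The scaffold Magi1 fell by 0.21 and Ildr2 rose by 0.26, which makes 3 of 17 lower, beside 14.6% of all genes, and 1 higher, beside 8.95%. Of 13 adherens junction partners (catenins, nectins and their linkers) none passed at 7 days (1 lower at an unadjusted p under 0.05) and Vezt alone fell at 14 days, by 0.44. Kazn rose by 0.51 at 14 days among 11 desmosome and cornified cell partners. None of the 3 measured gap junction partners (Gjd2, Panx1 and Panx3) passed against naive (at an unadjusted p under 0.05, 2 were lower at 7 days and 1 higher at 14 days), and all 3 were higher at 14 than at 7 days, by 0.26, 0.36 and 0.25. Among 11 measured regulators Snai1, a Snail-family repressor of E-cadherin, rose at 7 days by 0.88 ± 0.16 (adjusted p = 0.00535) and fell by 0.64 between 7 and 14 days.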

How the data were processed

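Each of the 16 RNA samples went onto 1 Affymetrix Rat Genome array. Values as the authors deposited them are log2 signals from RMA (background correction, quantile normalization and probe summary over all arrays together), and their processing notes name R 3.0.1. The version of RMA was not given in the sources used here. Array medians ran from 6.254 to 6.311. RMA gives no detection call, so low signals were not told apart from background. Precision is limited by how many arrays a group has. Of 31099 probesets, 57 controls, 9780 without a gene and 436 with several genes were left out, and the other 20826 were reduced to 14217 genes by the median over a gene's probesets. Gene names came from the platform annotation, updated through the GRCr8 RefSeq table where 20758 probesets matched.

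Groups were taken from the sample labels. One linear model with a mean per group was fitted to all arrays with limma 3.58.1 in R 4.3.3, with empirical Bayes moderation and Benjamini-Hochberg adjustment over all genes. A gene was called at an adjusted p under 0.05. The step was tested on simulated data with changed genes. Errors are SE for differences and SD for groups. The named junction genes were those called against naive, the 3 of each type with the largest moderated statistic at each time, and a set known from skin, 35 in all. The junction genes, partner lists and marker lists were chosen with earlier results of these data known. Replicate numbers did not pair the samples. Alternatives changed the probeset rule, the filter, the scaling, the weights, the moderation, the arrays in the model and the threshold.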

Additional observations from a re-analysis of the deposited data

Results flagged for a closer look

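In 108 groups of arrays (36 junction genes in 3 groups), the highest array stood apart from its group by Dixon's test in 3, where chance flags about 1 in 20. Cdh2 was 5.74 in 7-day replicate 4 against 4.77 to 4.97 in the others (gap over range 0.795). Pkp2 was 6.52 in 14-day replicate 2 against 6.14 to 6.24 (0.750). Cldn19 was 6.06 in 14-day replicate 5 against 5.75 to 5.84 (0.715).

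The change after denervation differed between the times for 8 junction genes, by the limma comparison of 14 with 7 days. Dsc2 differed by 2.93 (adjusted p = 0.0388), Pkp3 by 0.87 (adjusted p = 0.0487), Gjb1 by 0.42 (adjusted p = 0.00658), Cdh17 by 0.41 (adjusted p = 0.00676), Cldn6 by 0.38 (adjusted p = 0.011), Cldn14 by 0.36 (adjusted p = 0.0153), Gja6 by 0.30 (adjusted p = 0.00714) and Gjc1 by -0.40 (adjusted p = 0.0168).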

How the results depend on the processing

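With all arrays, 1116 of all 14217 genes were called higher and 378 lower at 7 days. At 14 days these counts were 1272 and 2071, and between the times 1260 and 1430. Without naive replicates 1 and 2 the counts of higher and lower junction genes were 8 and 5 for 7 days, 19 and 6 for 14 days, and 14 and 3 between the times, and the cadherin median for 14 days was -0.0237. The counts between the times stand beside 1965 and 2302 of all genes. Without naive replicates 4 and 5 the counts were 0 and 0 at 7 days, 3 and 1 at 14 days and 2 lower between the times, the last beside 1840 of all genes. Array weights gave 4 and 5, 21 and 6, and 12 and 2, with a cadherin median of -0.0617 at 7 days. The counts over all genes rose as well, to 2131 and 1711, 3572 and 3411, and 2265 and 2589. Fitting only the groups compared gave 0 higher at 7 days (3 at an unadjusted p under 0.05), 6 higher at 14 days, and 14 higher and 3 lower between the times. Over all genes these were 264, 968, and 1882 and 2523. The replicate block, which adds the replicate number as a term, gave 1 higher at 7 days and 5 higher and 1 lower at 14 days, but the numbers pair no samples (correlations of same-numbered deviations from -0.55 to 0.58). It called 746 of all genes higher at 7 days, and 367 higher and 899 lower at 14 days. Subtracting array medians gave 6 lower at 7 days with medians of -0.15 for tight junction genes and -0.0877 for cadherins, and a further quantile normalization 4 lower at 7 days and 0 lower between the times (3 at an unadjusted p under 0.05). Of all genes, 1492 were lower at 7 days with the medians subtracted. After the quantile normalization 729 were lower at 7 days and 733 between the times. The probeset with the highest mean gave 1 higher at 7 days, beside 1158 of all genes. With it Cdh11 turned to -0.27 at 7 days and 0.49 between the times because another of its probesets was then used. Testing each probeset singly gave 5 lower at 14 days, Cldn1 at -0.80 among them, and 2 lower between the times, beside 2601 and 1942 of all genes. Leaving out dim genes gave 3 higher between the times, beside 566 of the 10663 genes then tested. An adjusted p under 0.01 gave 0 and 0 at 7 days, 3 and 1 at 14 days, and 3 and 0 between the times, and one under 0.1 gave 3 lower at 7 days, 5 lower at 14 days and 4 lower between the times. With each array left out in turn, higher and lower counts ran from 0 to 3 and 1 to 3 at 7 days, 4 to 15 and 1 to 5 at 14 days, and 5 to 8 and 1 to 2 between the times. The count of 0 higher came without 7-day replicate 4, and the counts of 15 higher without naive replicate 1 or naive replicate 2. Over all genes these fits called 529, 2063 and 2150 higher in the same order. Where not stated, the cause of a shift was not tested.

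For the 36 genes described singly, 2853 values under alternatives kept their direction and side of the threshold, 145 lost a call, 110 gained 1 and 3 turned, which are given above.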

Other observations

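Partners and regulators of the junctions also differed between the 2 denervated groups. Evpl, which encodes the desmosome-associated envoplakin of the cornified envelope, was higher at 14 than at 7 days by 0.66 ± 0.17 (limma adjusted p = 0.0158). Cgnl1 and Pard3, scaffold proteins of the tight junction, were higher by 0.43 and 0.42, and Mpdz was lower, with -0.94 ± 0.28 (adjusted p = 0.0347). Nectin3 was higher by 0.34 and Vcl, the vinculin that ties adherens junctions to actin, lower with -0.35. Of the regulators, Elf3, an epithelial transcription factor, was higher by 0.24, and Zeb2, a repressor of epithelial genes, was lower with -0.78 ± 0.24 (adjusted p = 0.0342).

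Of 13 keratinocyte markers 3 (Col17a1, Itgb4 and Krt15, all genes of basal cells) were lower at 7 days and 4 at 14 days, when Itga6 joined them, and limma called none higher (1 at an unadjusted p under 0.05, at 14 days). Krt15 gave -0.60 and -1.06 and Col17a1 -0.75 and -1.34 at the 2 times. Of 16 macrophage markers 13 were higher at 7 days and 2 at 14 days. None of 7 melanocyte and 9 adipocyte or sebaceous gland markers passed at either time, with 1 and 1 at an unadjusted p under 0.05, both at 14 days.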
